A study of Mus musculus with 20 samples.

Results

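9 genes of the complement system were followed through the stromal, endothelial and immune cells of mouse interscapular brown adipose tissue (iBAT). The members were taken by gene symbol, 9 of the 31053 genes in each count matrix: C1qa, C1qb and C1qc, C1ra and C1s1, C4b and C3, Cfb, and C7. All 9 symbols were found in every matrix. The cells came from the stromal vascular fraction, which was split on magnetic beads into lineage marker positive (Lin+, immune) and lineage marker negative (Lin-, non-immune) cells, and each fraction gave 1 single-cell library per experiment, 20 libraries from 10 experiments in all. Tissue of 3 to 4 mice aged 8 to 14 weeks was pooled after digestion for each library, so a replicate is a pool and not a mouse.

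6 experiments used male C57BL/6J mice (C57), with 2 experiments each at room temperature (RT), after 4 days at 6 °C (COLD), and after 4 days of infusion of CL316,243 at 0.75 nmol per hour (CL). CL316,243 is an agonist of the beta-3 adrenergic receptor. The other 4 experiments used female mice homozygous for a floxed Adrb1 allele, the gene of the beta-1 adrenergic receptor, and all of these mice received tamoxifen. Mice without Pdgfra-CreER (WT) and mice with 1 copy of it (KO) were each held at RT or in the cold for 4 days, with 1 experiment per group. The Cre is driven by Pdgfra, which stromal cells express, so immune and endothelial cells of KO mice were not its target. The RT libraries of this line were made with kit v3 and its COLD libraries with kit v2, and the study's methods give different collection days for them. Kit, day and temperature cannot be told apart there, and the 2 lines also differ in sex and tamoxifen.

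Complement is a cascade of proteins that tags cells and debris for uptake and can pierce membranes. In the classical pathway C1q, a hexameric bouquet built of A, B and C chains, binds a surface and switches on the proteases C1r and C1s, which cleave C4 and C2 to make a convertase that cleaves C3. Factor B, encoded by Cfb, forms the convertase of the alternative pathway with C3b, and C7 is an early part of the membrane attack complex. Liver makes most of the circulating proteins, whereas C1q comes mainly from macrophages and related myeloid cells, and fibroblasts and adipose tissue are known local sources of several of the others.

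Of 89637 Lin- and 67122 Lin+ barcodes, 66339 and 59935 passed the filters. Between 57.7% and 96.2% of barcodes were kept in a library, except that RT replicate 2 kept 28.0% of its Lin- barcodes because 72.01% had a high mitochondrial share. In CL replicate 2, 1098 barcodes occurred in both fractions, 17.1% of the smaller one, against 0.0588% to 1.83% in the other experiments. Leaving those cells out did not change the number of member-by-class tests called in the cold or with CL, given after the members' values. Cells were clustered with all complement genes left out, and clusters were named from marker lists. 3 stromal classes were used, ASC1-like (11875 cells), ASC2-like (11606) and ASC3-like (7735), with vascular endothelial cells (VEC-like, 6515), macrophages (MAC-like, 13390) and dendritic cells (DEND-like, 8359). A Lin- cluster of 4209 cells led by Saa3 and Mmp3 showed no ASC1 marker raised and was left unnamed, as was an endothelial cluster of 4928 cells led by erythroid genes. Counts were summed per class and library and are given as CPM, that is, scaled so that every sum has the same total. Sums ran from 478008 counts (VEC-like) to 16660617 (MAC-like). The detection floor was taken as 3 counts. It stood for 0.252 to 2.18 CPM in ASC1-like, 1.145 to 6.276 in VEC-like and 0.216 to 4.41 in DEND-like cells. Fewer cells of a subtype and less RNA per cell cannot be told apart in such sums unless the subtypes are shown separately. These CPM are tags from transcript ends and are compared here across classes and groups for 1 gene, not between genes.

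The 3 C1q chain genes stand side by side on mouse chromosome 4 (GRCm38.p6): C1qb at chr4:136880126-136886200, C1qc at chr4:136889801-136892936 and C1qa at chr4:136895916-136898844, with 3600 and 2979 bases between them. C1ra at chr6:124512621-124523440 and C1s1 at chr6:124530344-124542392 are 6903 bases apart. C4b at chr17:34728139-34743902 and Cfb at chr17:34856374-34862514 share a chromosome with C3 at chr17:57203967-57228136, and Cfb ends 87 bases before C2, the next gene of the pathway. C7 spans chr15:4987750-5063773. C1ra, C1s1 and C4b have near-identical neighbours (C1rb, C1s2 and C4a), so reads of such a pair may have been split or dropped in counting, and C4a was not among the genes in the files.

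RefSeq's table of start sites for GRCm38.p6 held 6 of the 9 members. The 250 bases before the start of 4 of them are shown because these genes stood for the patterns described next: C1qb and C1qc for the macrophage genes, C3 for the gene shared by all stromal classes and C7 for the gene of ASC3-like cells. Capitals mark matches to 4 short motifs searched on both strands: GAGGAA (the core bound by PU.1, a factor of myeloid cells), TTGCNNAA (C/EBP), TTCNNNGAA (STAT) and TATAAA, a core promoter element.
C1qb, chr4:136886201-136886450, minus strand: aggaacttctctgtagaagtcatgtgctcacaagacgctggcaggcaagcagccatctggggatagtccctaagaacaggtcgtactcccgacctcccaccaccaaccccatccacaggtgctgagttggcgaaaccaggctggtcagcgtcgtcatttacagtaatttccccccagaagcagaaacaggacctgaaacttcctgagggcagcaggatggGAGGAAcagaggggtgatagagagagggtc
C1qc, chr4:136892915-136893164, minus strand: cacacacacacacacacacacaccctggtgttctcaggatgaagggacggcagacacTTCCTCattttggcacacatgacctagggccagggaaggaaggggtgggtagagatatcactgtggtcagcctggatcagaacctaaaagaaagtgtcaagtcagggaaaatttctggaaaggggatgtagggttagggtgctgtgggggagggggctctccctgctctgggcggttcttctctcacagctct
C3, chr17:57228137-57228386, minus strand: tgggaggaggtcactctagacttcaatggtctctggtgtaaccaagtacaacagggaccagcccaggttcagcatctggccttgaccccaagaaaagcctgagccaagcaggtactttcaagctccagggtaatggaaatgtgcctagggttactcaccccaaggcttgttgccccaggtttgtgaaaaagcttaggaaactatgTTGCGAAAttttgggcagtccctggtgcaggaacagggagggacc
C7, chr15:5063774-5064023, minus strand: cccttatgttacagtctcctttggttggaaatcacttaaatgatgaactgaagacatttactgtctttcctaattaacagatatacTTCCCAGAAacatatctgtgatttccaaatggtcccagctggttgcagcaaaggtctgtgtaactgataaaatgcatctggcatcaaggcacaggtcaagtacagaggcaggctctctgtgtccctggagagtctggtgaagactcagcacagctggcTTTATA
The PU.1 core lay 30 bases before the start of C1qb and, on the other strand, 193 bases before that of C1qc. The start site used for C1qc lies inside the gene span given above, so its window overlaps the end of that span. A C/EBP match TTGCGAAA lay 45 bases before the start of C3, and C7 held a STAT match TTCCCAGAA at 164 bases and a TATA match on the other strand at 6 bases. Of the members not shown, C1ra, also found in all stromal classes, held no match to the 4 motifs. C1s1 held a C/EBP match 242 bases before a start site. Such matches are common: of 32851 windows of this length, 23.25% held the PU.1 core, 9.564% the C/EBP motif, 7.02% the STAT motif and 12.37% the TATA motif. They describe the sequence and say nothing of binding.

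The members fell into a macrophage group and a stromal group. C1qa, C1qb and C1qc were at most 2.86 CPM in any stromal or endothelial sum of the C57 mice, and 1639 to 5307 CPM in MAC-like cells. C1ra, C1s1 and C3 were higher in each stromal class than in any of the other classes, and C4b and Cfb reached their highest level in ASC2-like or ASC3-like cells of each C57 experiment. C7 was highest in ASC3-like cells, with no count in MAC-like cells of any of the 10 experiments. VEC-like cells held low levels of the stromal members, with C57 ranges of 6.43 to 17.2 CPM for C1ra, 6.26 to 39.5 for C1s1, 3.92 to 111.3 for C3, 2.40 to 21.5 for C4b, 0 to 13.1 for Cfb and 0 to 2.77 for C7. The floor there ran from 1.145 to 6.276 CPM. No C7 value exceeded that range, and the lower ends for C1s1, C3, C4b and Cfb lay within or below it, as did the C1q maximum of 2.86 CPM. The summed level of 8 general stromal markers in VEC-like cells of C57 mice was 473.1 to 1112 CPM, except for 2856 CPM in CL replicate 2. Its part in these values was not tested. None of the 5 members tested in VEC-like cells was called by edgeR in the cold, with CL or between the treatments, where 0% of all genes were called in each contrast. At an unadjusted p under 0.05, 921, 630 and 603 genes passed there in edgeR, and DESeq2 called 35, 8 and 7. Without the low-count filter edgeR called C4b in the cold (adjusted p = 0.03) and C3 with CL (adjusted p = 0.018) and between cold and CL (adjusted p = 0.0039). That setting gave far smaller adjusted p at nearly the same change. For C2 in MAC-like cells in the cold it gave -3.34 (edgeR, adjusted p = 1.1e-20), against -3.46 (adjusted p = 0.00033) in the main fit. Its added calls therefore carry little weight.

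**Figure D1:**
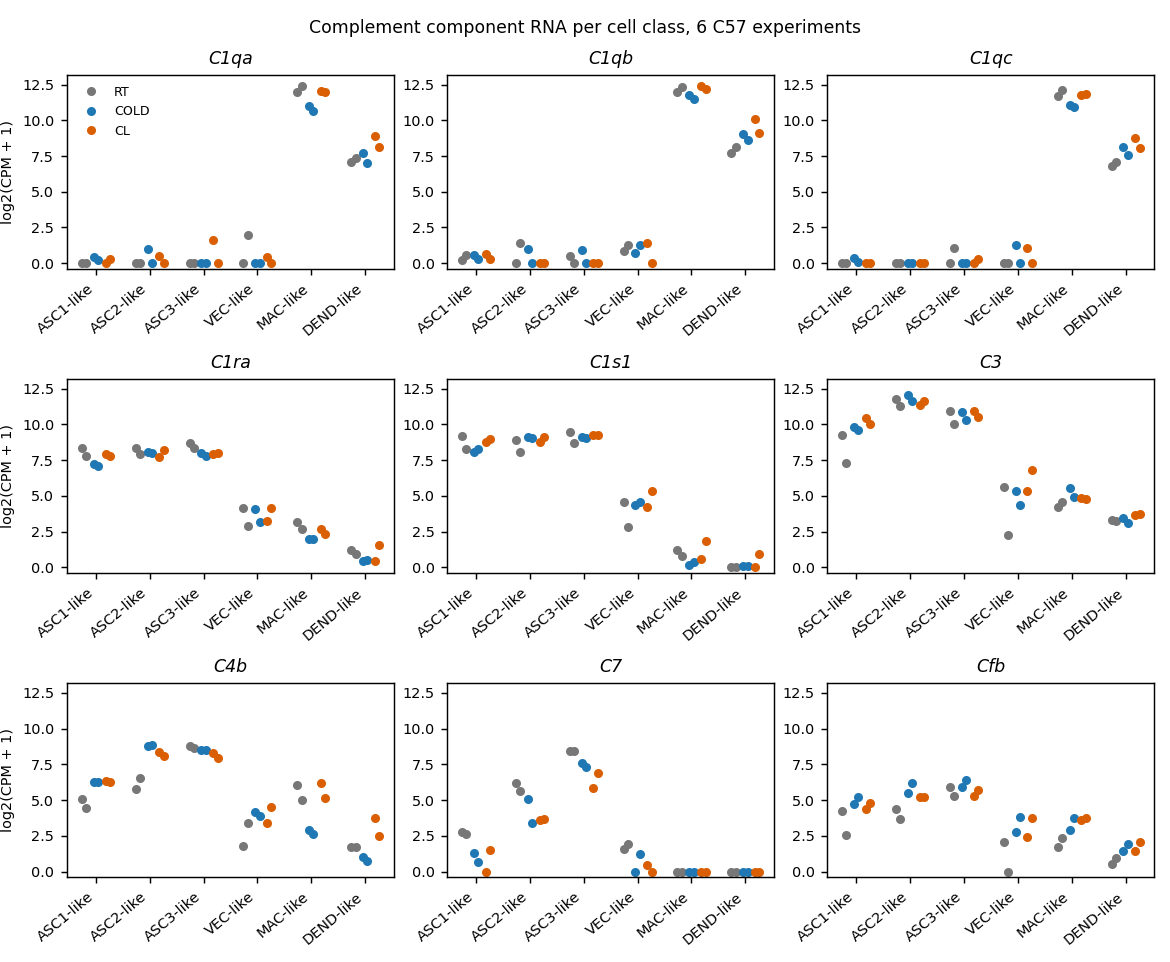
Level of each of the 9 members in the 6 cell classes, as log2(CPM + 1) on the vertical axis, with 1 point per C57 experiment coloured by treatment. C1qa, C1qb and C1qc stand high in MAC-like cells and at an intermediate level in DEND-like cells, and C1ra, C1s1 and C3 stand high in all 3 stromal classes, with C4b, Cfb and C7 highest in ASC2-like or ASC3-like cells.

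C1qa, the gene of the A chain, was lower in MAC-like cells of cold-exposed mice than in those of both other groups. It measured 3997 and 5277 CPM at RT, 2039 and 1639 CPM after cold and 4167 and 3957 CPM after CL. The cold experiments lay below all others, while the RT and CL values overlapped. Against RT it fell by 1.28 ± 0.26 on the log2 scale in the cold (± is the standard error throughout, edgeR's quasi-likelihood test over 2 experiments a group, adjusted p = 0.0041), and against CL the difference was -1.09 ± 0.26 (edgeR, adjusted p = 0.028). The call against RT was lost without COLD replicate 2, and the call against CL without either COLD replicate. C1qc, the C chain, measured 3375 and 4366 CPM at RT, 2155 and 1935 in COLD mice and 3407 and 3709 with CL. It fell by 0.86 ± 0.25 in the cold (edgeR, adjusted p = 0.023), a call lost without RT replicate 2 or either COLD replicate. C1qb, the B chain, measured 3945 and 5263 CPM at RT, 3519 and 2917 after cold and 5307 and 4759 after CL. Its change in the cold was -0.46 ± 0.25 and did not pass the test (edgeR, adjusted p = 0.18). The cold values of C1qb were the lowest of the 6 but came closer to RT than those of the other 2 chains.

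The 3 chain genes thus did not keep a fixed proportion. The ratio of C1qb to C1qa counts in MAC-like cells was 0.987 and 0.997 in RT mice, 1.73 and 1.78 in COLD mice, and 1.27 and 1.20 with CL. Along the MAC-like clusters the median ratio was 0.982 in resident-like cells with Lyve1, 1.01 in resident-like cells with Mgl2, 1.62 in lipid-associated cells and 2.15 in inflammatory cells, over libraries of all treatments. Within lipid-associated cells the ratio also differed by treatment, at 1.06 and 1.11 in the RT libraries with enough counts, both of the Adrb1 line, 1.45 and 1.52 with CL, and 1.73 to 2.33 over the 4 COLD libraries, so cluster and treatment are mixed in these medians. In B cells and T cells, which should lack C1q, C1qa had median levels of 33.7 and 30.0 CPM, and the ratio had medians of 1.13 and 1.15. Levels near these are read as background, to which free RNA and doublets could both add and whose source was not tested. Neutrophils with Cxcr2 held 456 and 995.3 C1qa counts in RT mice, 272.6 and 408.5 in COLD mice, and 1078 and 1451 with CL. Their ratio was 1.01 and 0.983, 1.65 and 1.68, and 1.15 and 1.38, close to the MAC-like ratios. B and T cells may thus understate the background of other Lin+ cells, and its part in DEND-like values was not tested.

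The make-up of MAC-like cells moved with treatment, in the cold along with C1qa and with CL without a called change of C1qa. Clusters with mostly resident markers held 96.4% and 94.1% of MAC-like cells in RT mice, 4.19% and 2.89% in COLD mice, and 41.1% and 63.9% with CL. In the cold, the lipid-associated cluster, which expresses Gpnmb and Trem2, held 40.9% and 49.7%, and the inflammatory cluster 54.9% and 47.5%. The inflammatory cluster carried both macrophage and monocyte markers. It had 12 of 12 inflammatory, 8 of 12 lipid-associated, 6 of 16 general macrophage, 0 of 12 resident and 5 of 10 monocyte markers raised. Its 10 leading genes held 4 of the inflammatory list (Cxcl10, F10, Chil3 and Il1rn) and 1 of the lipid-associated list (Spp1). They held 0 of the general list and 1 of the monocyte list (Chil3), and Vcan and Thbs1, which monocytes also express, were among the others. With that cluster left out of MAC-like cells, an alternative chosen after seeing the data, C1qa still fell in the cold (-0.84, edgeR, adjusted p = 0.044), while its difference from CL (-0.76, adjusted p = 0.18) and the change of C1qc (-0.46, adjusted p = 0.22) were no longer called. Median C1qa over libraries was 5650 CPM (4195 to 7941) in resident-like cells with Mgl2, 5387 CPM (3390 to 7774) in those with Lyve1, 2973 CPM (628.5 to 3821) in lipid-associated cells and 580.4 CPM (61.7 to 925.5) in inflammatory cells. Within the resident-like cells with Lyve1, C1qa measured 4022 and 5641 CPM at RT, 7153 and 6144 CPM in the cold from 83 and 38 cells, and 6234 and 5133 CPM with CL. When the sums were restricted to resident-like clusters, the cold change of C1qa was 0.25 (edgeR, adjusted p = 0.70), that of C1qc 0.33 (adjusted p = 0.58) and that of C1qb 0.37 (adjusted p = 0.54), all opposite in sign to the change over all MAC-like cells. The resident-like part itself shifted, since Lyve1 cells were 18.4% and 19.6% of it in RT mice, 66.4% and 73.1% in the cold, and 90.1% and 56.4% with CL. In the Lyve1 cells alone the cold changes of C1qa (0.32, adjusted p = 0.62), C1qc (0.46, adjusted p = 0.47) and C1qb (0.70, adjusted p = 0.27) had the same sign as in both resident-like clusters together. The falls of C1qa and C1qc were thus called over the macrophage pool and not within its resident-like part.

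**Figure D2:**
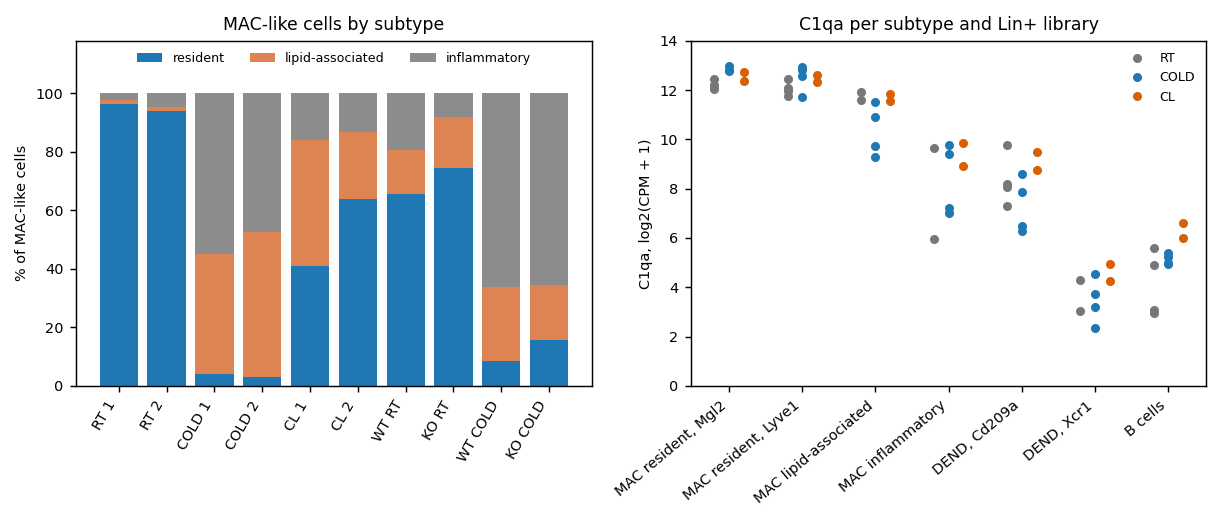
Left, percent of MAC-like cells in resident, lipid-associated and inflammatory clusters for each experiment; right, C1qa as log2(CPM + 1) in macrophage and dendritic cell subtypes and B cells, with 1 point per Lin+ library of both lines. Resident clusters hold most MAC-like cells at RT and 4.19% and 2.89% in the 2 C57 cold experiments, and C1qa steps down from resident to lipid-associated to inflammatory cells.

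DEND-like cells carried C1q at a lower level, and in C57 mice the group mean of each chain was highest with CL. The highest C1qa of all 10 experiments, 576.5 CPM, was in KO RT, whose sum held 91 cells. C1qc measured 113.1 and 132.4 CPM at RT, 279.4 and 193.4 in COLD mice and 442.6 and 268.0 with CL. It rose by 1.33 ± 0.23 with CL (edgeR, adjusted p = 0.049), a call lost without either RT replicate, CL replicate 1 or COLD replicate 2, and with both fractions summed. C1qb measured 204.0 and 279.1 CPM at RT, 520.0 and 390.8 after cold and 1065 and 546.6 after CL, a difference of 1.52 ± 0.27 between CL and RT (edgeR, adjusted p = 0.054). For C1qa the values were 131.2 and 160.3 CPM at RT, 205.5 and 126.3 in COLD mice and 483.8 and 278.1 with CL, a difference of 1.18 ± 0.26 (edgeR, adjusted p = 0.091). With the replicate number as a block, the CL calls of C1qb and C1qa passed (1.48, adjusted p = 0.013, and 1.14, adjusted p = 0.020), as did C1qc in the cold (0.70, adjusted p = 0.030, against 0.063 without the block) and C1qa between cold and CL (-1.22, adjusted p = 0.009). With the Adrb1 line in the fit the cold differences of C1qc and C1qb turned to -0.36 (edgeR, adjusted p = 0.62) and -0.43 (adjusted p = 0.53). Among DEND-like subtypes C1qa was highest in cells with Cd209a (median 279 CPM, 75.8 to 877.7) and at 15.1 CPM, below the B cell median, in cells with Xcr1. The cluster with Cd209a had 4 of 16 dendritic cell markers raised, against 8 with Xcr1, 6 with Ccr7 and 7 with Siglech. The Cd209a cells made up 48.3% and 58.4% of DEND-like cells in RT mice, 50.6% and 50.5% in COLD mice, and 63.3% and 60.4% with CL. The summed level of the 16 macrophage markers in DEND-like cells was 1171 and 1124 CPM in RT mice, 2645 and 2379 in the cold, and 3316 and 2659 with CL, with 16 of 16 detected, and its part in the C1q values was not tested. The C1qb to C1qa ratio in DEND-like cells was 1.55 and 1.74 in RT mice, 2.53 and 3.09 in COLD mice, and 2.20 and 1.97 with CL, above the MAC-like ratio of the same experiment in all 6.

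C1ra and C1s1, the genes of the 2 proteases that C1q activates, were stromal genes found in all 3 stromal classes. In the cold the means of C1ra and C1s1 were lower in ASC1-like cells (143.4 and 291.6 CPM) than in ASC2-like (262.1 and 541.6) and ASC3-like cells (242.8 and 553). C1ra in ASC1-like cells measured 330.3 and 221.7 CPM at RT, 152.4 and 134.3 after cold and 245.5 and 223.8 after CL. The cold values were the lowest, but the change of -0.89 ± 0.39 did not pass the test (edgeR, adjusted p = 0.17). In ASC2-like cells C1ra ranged from 208.9 to 333.3 CPM over the 6 experiments, and in ASC3-like cells from 224.8 to 411.3 CPM, with overlapping groups in ASC2-like cells. C1s1 in ASC1-like cells measured 580.5 and 311.4 CPM at RT, 272.5 and 310.7 in COLD mice and 436.3 and 514.5 with CL. In ASC2-like cells it measured 486.4 and 272.0 CPM at RT, 546.9 and 536.3 after cold and 436.1 and 560.4 after CL. The RT replicates lay further apart than the groups in both classes, and C1s1 was called in no class. In MAC-like cells C1ra was low, 8.09 and 5.53 CPM at RT, 3.05 and 2.97 in COLD mice and 5.59 and 4.05 with CL, and fell by 1.10 ± 0.35 in the cold (edgeR, adjusted p = 0.031), a call lost with DESeq2, without RT replicate 1 or either COLD replicate, without the inflammatory cluster, and in resident-like clusters, where the change was 0.52. In MAC-like cells the 8 stromal markers summed to 122.5 and 165.4 CPM in RT mice and to 174.4 and 212.3 CPM in COLD mice, with 146 and 269.2 CPM in CL mice, and their part in the C1ra values was not tested. A cluster with pericyte markers, outside the named stromal classes, held C1s1 at a median of 449.5 CPM (382.8 to 755.8).

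C4b, whose product is cleaved by C1s, had the largest called changes of the members, up in stromal and down in macrophage sums. In ASC2-like cells it measured 53.3 and 93.98 CPM at RT, 440.3 and 472.6 after cold and 325.7 and 277.2 after CL. Both treatments lay well above RT without overlap. It rose by 2.77 ± 0.28, or 6.82-fold, in the cold (edgeR, adjusted p = 0.0061) and by 2.31 ± 0.28, or 4.95-fold, with CL (edgeR, adjusted p = 0.046). The cold call was lost without COLD replicate 2 (adjusted p = 0.06), and the CL call without CL replicate 1, RT replicate 2 or either COLD replicate. The rise was seen in both main ASC2-like clusters. In cells with Pcolce2 and Il1r2, C4b measured 92.8 and 156.5 CPM at RT, 541.4 and 557.7 in COLD mice and 422.4 and 300.8 with CL. In cells with Sbsn and Dmkn it measured 24.4 and 22.8 CPM at RT, 347 and 375.4 after cold and 277.3 and 245.8 after CL.

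In ASC1-like cells C4b started lower, at 32.8 and 21.2 CPM at RT, against 77.8 and 78.0 in the cold and 80.4 and 77.4 with CL. It rose by 1.51 ± 0.31 in the cold (edgeR, adjusted p = 0.015), and with CL the difference was 1.58 ± 0.32 (edgeR, adjusted p = 0.06), which passed with the replicate block (1.63, adjusted p = 0.028). With the Saa3 and Mmp3 cluster added to ASC1-like cells the cold change was 0.45 (edgeR, adjusted p = 0.17) and the CL change 1.42 (adjusted p = 0.013), and with the Adrb1 line in the fit the cold change was 0.37 (adjusted p = 0.62). That cluster held 4.69% and 5.77% of Lin- cells in RT mice, 6.45% and 6.83% in the cold and 8.06% and 8.99% with CL, and its own C4b was 166.5 and 415.6, 130.4 and 189.7, and 236.2 and 319.6 CPM. The make-up of ASC1-like cells also moved: a cluster with Cxcl9 and Timp1 held 3.90% and 4.52% of them in RT mice, 84.8% and 88.0% in the cold, and 62.3% and 35.4% with CL, and C4b differed by treatment within each cluster too. The cluster with Cxcl9 and Timp1 had 5 of 12 ASC1 markers raised, and the cluster with Smoc2 and Cxcl14 had 10 of 12. Cxcl9 and Timp1 are themselves on that list of 12, as are Smoc2 and Cxcl14. Cxcl9, Timp1 and Saa3 were among the 10 leading genes of the first cluster, so its ASC1 identity rests on few other markers. In the cluster with Cxcl9 and Timp1 C4b measured 66.9 and 54.6 CPM at RT from 49 and 54 cells, 76.9 and 78.7 after cold and 89.2 and 127.0 after CL. In the cluster with Smoc2 and Cxcl14 it measured 31.2 and 19.5 CPM at RT, 84.03 and 70.2 after cold and 61.6 and 40.5 after CL, so that both clusters had higher C4b under both treatments than at RT. In ASC3-like cells C4b was high at RT, 443.7 and 404.9 CPM, and measured 356.8 and 358.9 in the cold and 306.5 and 242.0 with CL. These lower values did not pass the test in the cold (-0.25 ± 0.37) or with CL (-0.51 ± 0.37). Thus at RT C4b was several times higher in ASC3-like than in ASC2-like cells, and in the cold the order was the other way round in both replicates.

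In MAC-like cells C4b measured 64.9 and 31.01 CPM at RT, 6.45 and 5.11 in COLD mice and 73.5 and 34.4 with CL. It fell by 2.97 ± 0.39 in the cold (edgeR, adjusted p = 0.00047), and the difference between cold and CL was -3.14 ± 0.37 (edgeR, adjusted p = 0.0013), with no change called between CL and RT. C4b was a gene of the Lyve1 resident-like cells, with a median of 154.1 CPM (57.5 to 488.6), against 26.7 in those with Mgl2, 7.26 in lipid-associated and 3.54 in inflammatory cells. Restricted to resident-like clusters its cold change was 1.20 (edgeR, adjusted p = 0.16), opposite in sign, but the larger share of Lyve1 cells there in the cold, given above, moves with it. In the Lyve1 cells alone C4b measured 321.7 and 121.6 CPM at RT, 143.4 and 164.7 after cold and 173.7 and 78.5 after CL, overlapping values, and the cold change was -0.63 (edgeR, adjusted p = 0.43). In DEND-like cells C4b was at 2.25 and 2.27 CPM at RT, 1.07 and 0.636 after cold and 12.4 and 4.49 after CL, and the difference between cold and CL was -3.24 ± 0.47 (edgeR, adjusted p = 0.017), a call lost without either COLD replicate or CL replicate 1. Schwann cells, the glia of peripheral nerve, held C4b at a median of 253.2 CPM (138.6 to 436.2).

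C3, on whose cleavage all complement routes converge, was abundant in stroma and highest in ASC2-like cells. There it measured 3605 and 2454 CPM at RT, 4346 and 3148 in COLD mice and 2639 and 3251 with CL. In ASC3-like cells it measured 1955 and 1041 CPM at RT, 1842 and 1296 after cold and 1943 and 1461 after CL. The groups overlapped in both classes. In ASC1-like cells C3 measured 608.3 and 155.3 CPM at RT, 910.1 and 787.2 in COLD mice and 1422 and 1051 with CL. Both treatments lay above RT, but the RT replicates were far apart, and the differences of 1.09 ± 0.77 in the cold (edgeR, adjusted p = 0.4) and 1.66 ± 0.78 with CL (adjusted p = 0.43) were within that spread. In MAC-like cells C3 was low, at 17.4 and 22.7 CPM at RT, 45.0 and 29.5 after cold and 27.4 and 26.5 after CL. It rose by 0.94 ± 0.25 in the cold (edgeR, adjusted p = 0.015), a call lost without RT replicate 1 or COLD replicate 1 and in resident-like clusters. Without the inflammatory cluster the cold change of C3 was -0.23 (edgeR, adjusted p = 0.5). Its median was 99.6 CPM in inflammatory cells and 172.7 CPM in monocytes with Chil3.

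Cfb, the gene of factor B, was low in every class, and its cold means lay above RT in the 3 stromal classes and in MAC-like cells. In ASC2-like cells it measured 19.9 and 11.8 CPM at RT, 44.3 and 71.7 in COLD mice and 35.9 and 36.7 with CL. The cold difference of 1.84 ± 0.39 did not pass the test (edgeR, adjusted p = 0.086) but did with the replicate block (1.80, adjusted p = 0.042). In ASC3-like cells Cfb measured 60.8 and 37.4 CPM at RT, 60.3 and 85.7 after cold and 38.2 and 50.7 after CL, with overlapping groups. In ASC1-like cells the values were 18.3 and 5.02 CPM at RT, 25.1 and 36.3 in COLD mice and 19.5 and 26.9 with CL. In MAC-like cells Cfb measured 2.25 and 4.06 CPM at RT, 6.69 and 12.1 after cold and 11.4 and 12.2 after CL. It rose by 1.57 ± 0.45 in the cold (edgeR, adjusted p = 0.022) and by 1.85 ± 0.45 with CL (edgeR, adjusted p = 0.039). Unlike the other members called in MAC-like cells, Cfb stayed called in resident-like clusters alone, at 3.46 in the cold (edgeR, adjusted p = 0.018) and 2.67 with CL (edgeR, adjusted p = 0.027). The share of Lyve1 cells among resident-like cells, given above, was higher in the cold and with CL, so this is not shown as a change within either cluster. Few counts stand behind it: in the resident-like cells with Mgl2, Cfb measured 0 and 1.97 CPM at RT and 6.71 and 2.68 with CL, and 0 in the 42 cells of COLD replicate 1. In those with Lyve1, Cfb measured 10.1 and 2.21 CPM at RT from 129 and 135 cells, 16.7 and 45.2 CPM after cold from 83 and 38 cells, and 16.5 and 12.5 CPM with CL from 1016 and 300 cells, too few counts to pass the filter of a fit on this cluster alone. Over all MAC-like cells the cold call was lost without either RT replicate or COLD replicate 2, and the CL call without either RT replicate or CL replicate 1.

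**Figure D3:**
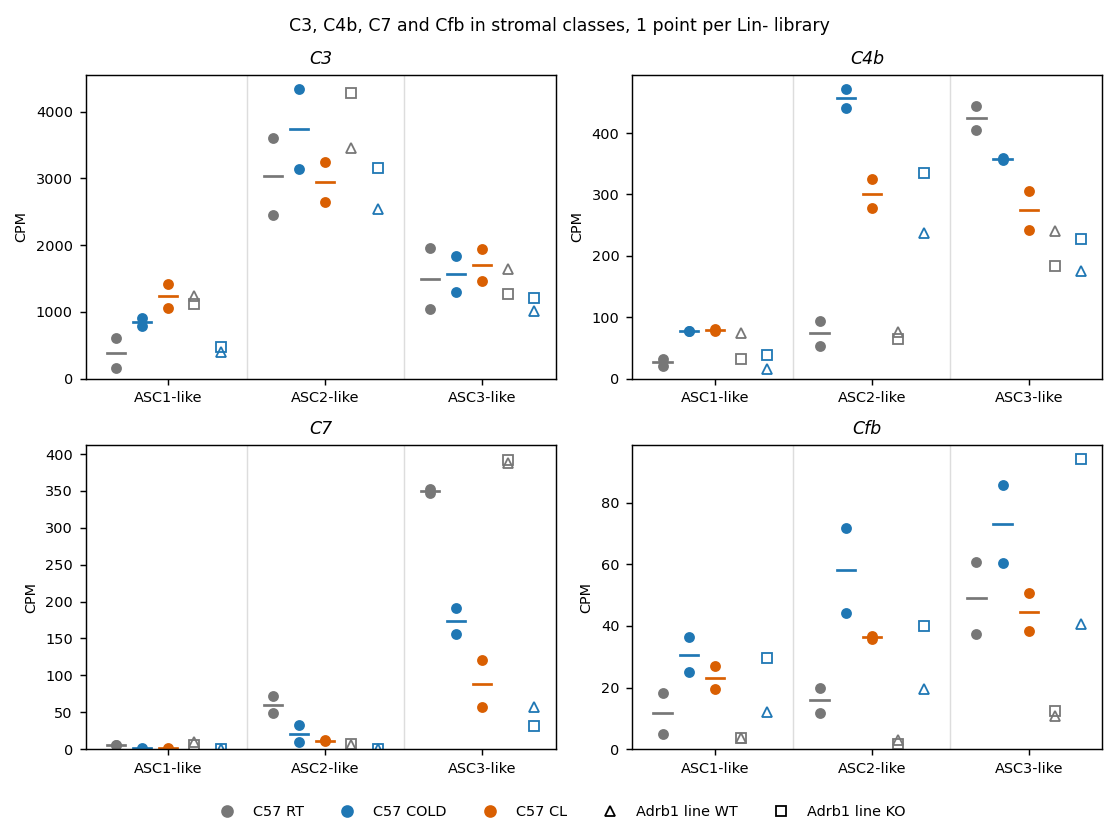
C3, C4b, C7 and Cfb in ASC1-like, ASC2-like and ASC3-like cells, in CPM on linear axes that start at 0. Filled circles are the C57 experiments with a line at the mean of the 2, open triangles the WT and open squares the KO experiments of the Adrb1 line, coloured by treatment. In ASC2-like cells every cold and CL value of C4b stands above every RT value, and in ASC3-like cells every RT value of C7 stands above every other.

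C7, which joins C5b and C6 on a membrane to begin the attack complex, was highest in ASC3-like cells, with lower values under both treatments. In ASC3-like cells it measured 352.4 and 347.2 CPM at RT, 192.0 and 156.4 in COLD mice and 56.7 and 121.0 with CL. The 3 groups did not overlap, yet the differences of -1.01 ± 0.39 in the cold (edgeR, adjusted p = 0.48) and -1.74 ± 0.40 with CL (adjusted p = 0.19) did not pass the test. In ASC2-like cells C7 measured 71.9 and 48.6 CPM at RT, 32.4 and 9.42 after cold and 11.3 and 12.1 after CL. Its differences of -1.65 ± 0.48 in the cold (edgeR, adjusted p = 0.26) and -2.19 ± 0.48 with CL (adjusted p = 0.22) passed with the replicate block (-1.62, adjusted p = 0.040, and -1.92, adjusted p = 0.032). In ASC1-like cells C7 rested on few counts, 39 and 9.6 at RT, 12.9 and 6.9 in COLD mice and 0 and 8.77 with CL, and it measured 5.79 and 5.14 CPM at RT, 1.45 and 0.580 in COLD mice and 0 and 1.91 with CL, where the count of 0 allows up to 1.94 CPM (3 counts). It fell by 2.43 ± 0.64 in the cold (edgeR, adjusted p = 0.039), a call lost without either RT or either COLD replicate. Among ASC3-like cells the cluster with Gdf10 carried most of C7, at 424.6 and 430.3 CPM at RT, 200.2 and 168 after cold and 62.9 and 143.9 after CL, and the cluster with Cilp and Thbs4 had a median of 51.8 CPM.

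Against RT, 9 member-by-class tests were called in the cold and 3 with CL, and 3 were called between cold and CL. In the cold, 2 of 6 members tested were called in ASC1-like cells, where 11.9% of all genes were called, 1 of 6 in ASC2-like cells (0.681% of all genes) and 0 of 6 in ASC3-like cells (0.409%). In MAC-like cells 6 of 8 were called, 2 up and 4 down, with a median change of -0.98, in a contrast that called 36.3% of all genes with a median near 0, and in DEND-like cells 0 of 5, where 13% of all genes were called. With CL, 0 of 6 members were called in ASC1-like cells (1.11% of all genes), 1 of 6 in ASC2-like cells (0.0737%), 0 of 6 in ASC3-like cells (0.0897%), 1 of 8 in MAC-like cells (7.38%) and 1 of 5 in DEND-like cells (0.622%). Between cold and CL, 0 of 6 were called in each of ASC1-like (0.26%), ASC2-like (0.0368%) and ASC3-like cells (0.0897%), 2 of 8 in MAC-like cells (8.57%) and 1 of 5 in DEND-like cells (1.71%). The cold and CL contrasts share their RT experiments. With 2 experiments a group, an exact permutation test of a single value cannot go below p = 0.333, so all calls rest on the spread pooled across genes.

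**Figure D4:**
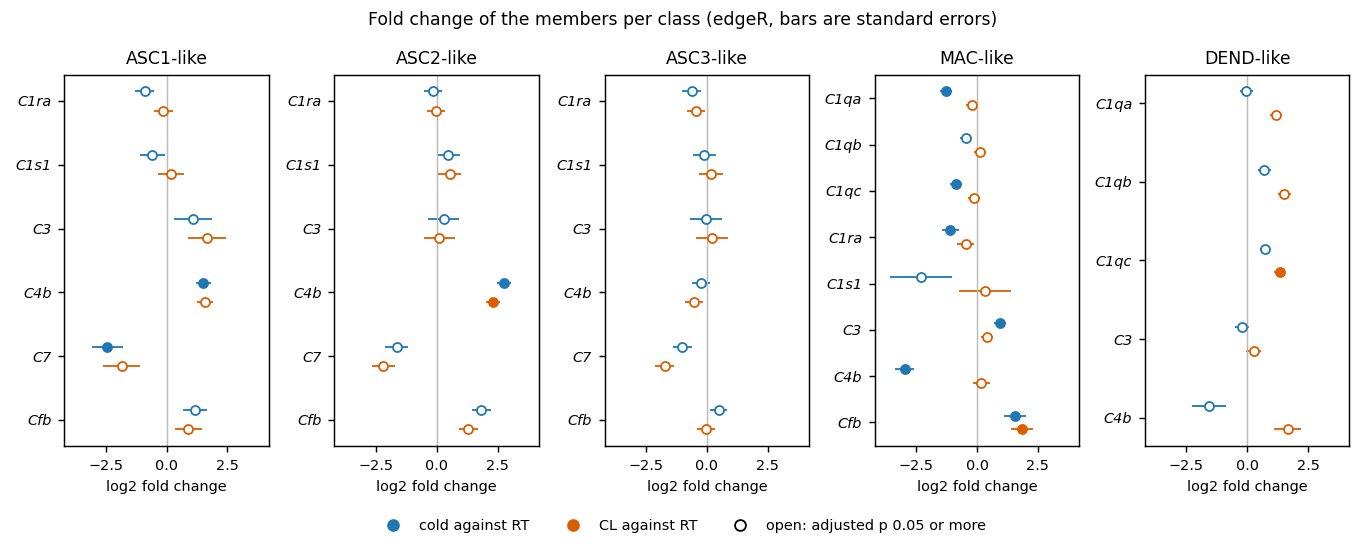
Log2 fold change of each tested member in 5 cell classes for cold against RT and CL against RT, on a horizontal axis, with bars of 1 standard error from edgeR over 2 experiments a group. Filled points passed an adjusted p of 0.05, and C4b stands far right of 0 in ASC2-like cells and, in the cold, far left in MAC-like cells.

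The stromal classes of 1 library were compared within that library, to test whether a treatment moved a member more in one class than in another. Between ASC2-like and ASC1-like cells the cold response differed for C4b by 1.26 ± 0.30 (edgeR, adjusted p = 0.016) and for C1s1 by 1.06 ± 0.27 (adjusted p = 0.025), C1s1 having changed by 0.48 in ASC2-like and -0.58 in ASC1-like cells, neither called, with 2 of 6 members called against 8.07% of all genes. The C4b difference was lost with DESeq2, without RT replicate 1 and without either COLD replicate, and the C1s1 difference without either COLD replicate. With CL 0 of 6 were called between these classes (0.925% of all genes), and C4b differed by 0.72 (edgeR, adjusted p = 0.4). Between ASC3-like and ASC1-like cells the cold response differed for C4b by -1.82 ± 0.20 (edgeR, adjusted p = 1.1e-05), for C3 by -1.43 ± 0.38 (adjusted p = 0.019), for Cfb by -0.77 ± 0.24 (adjusted p = 0.048) and for C7 by 1.39 ± 0.38 (adjusted p = 0.022). These are 4 of 6 members where 10% of all genes were called. In the cold Cfb (0.48 in ASC3-like and 1.18 in ASC1-like cells) and C3 (-0.03 and 1.09) were themselves called in neither class. The shift between ASC1-like clusters, given above, was not separated from the differences in response. With CL, 2 of 6 were called (0.981% of all genes), C4b at -2.17 ± 0.21 (edgeR, adjusted p = 2.1e-05) and C3 at -1.74 ± 0.38 (adjusted p = 0.028). The C4b difference in the cold was lost with the Saa3 and Mmp3 cluster added to ASC1-like cells (-0.69, adjusted p = 0.064), and the one with CL was kept in 13 of 13 alternatives.

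In the Adrb1 line, 1 experiment per group gives values and no test. Adrb1 itself, summed over the 3 stromal classes, measured 1.65 to 5.93 CPM in C57 mice, 1.23 (13 counts) in WT RT, 2.61 (44 counts) in WT COLD, 0 in KO RT and 0.494 (6 counts) in KO COLD. C4b in ASC2-like cells went from 76.6 to 237.0 CPM between RT and cold in WT and from 64.6 to 335.8 in KO, so both genotypes moved the way C57 mice did. C7 in ASC3-like cells went from 387.8 to 56.9 CPM in WT and from 392.6 to 31.6 in KO. Cfb in ASC2-like cells went from 3.12 to 19.5 CPM in WT and from 1.73 to 40.0 in KO. C1qa in MAC-like cells went from 3100 to 735.4 CPM in WT and from 4103 to 1245 in KO, and C4b there from 114.9 to 6.06 and from 125.8 to 10.1. In these 5 cases WT and KO moved alike and in the direction of the C57 mice. C3 in ASC1-like cells went the other way, from 1244 to 403.8 CPM in WT and from 1121 to 476.6 in KO. C4b in ASC1-like cells went from 74.3 to 16.3 CPM in WT, opposite to C57 mice, and from 32.2 to 39.3 CPM in KO. The RT experiments of this line also differed in make-up: 34.6% (WT) and 36.5% (KO) of their ASC1-like cells were in the cluster with Cxcl9 and Timp1, and 65.7% and 74.6% of their MAC-like cells were resident-like. Each experiment of this line was aligned as its own cohort before clustering, whereas C57 RT, COLD and CL libraries of a replicate shared a cohort. The part of this step in these shares, and in the lipid-associated RT cells of this line, was not tested. When the RT and COLD experiments of both lines were fitted together with the line as a term, C7 was called in the cold also in ASC3-like (-2.09, edgeR, adjusted p = 0.016) and ASC2-like cells (-1.97, adjusted p = 0.03), Cfb in ASC2-like (2.40, adjusted p = 0.011) and ASC1-like cells (1.63, adjusted p = 0.029), C1ra in ASC1-like cells (-1.02, adjusted p = 0.015) and C1qb in MAC-like cells (-0.67, adjusted p = 0.037). In the same fit C4b was no longer called in ASC1-like cells, and the difference of C3 there was -0.13 (edgeR, adjusted p = 0.9), against 1.09 in C57 mice alone. This fit had no term for genotype, so WT and KO served as replicates of the line. Temperature, kit and collection day change together in that line, so kit and day are mixed into the cold calls of this fit.

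The other complement genes were taken from a list of 45, of which 44 were in the files. Among convertase and soluble components, C2, the partner of C4b in the classical convertase, rose in ASC2-like cells in the cold (1.60, edgeR, adjusted p = 0.017), the only 1 of 13 tested there, where 0.681% of all genes were called. Cfd, the adipocyte protease that activates factor B, rose in ASC1-like cells in the cold by 2.42, and the rise with CL was 3.59 (edgeR, adjusted p = 0.0096) in that class, 3.38 (adjusted p = 0.028) in ASC3-like and 3.12 (adjusted p = 0.046) in ASC2-like cells. Cfd had a median of 2300 CPM in the adipocyte cluster, and the part of adipocyte RNA in these rises was not tested. In ASC1-like cells 4 of 17 genes were called in the cold, against 11.9% of all genes, and besides Cfd these were Vtn (-2.36), Clu (-1.58) and Colec12 (-1.16), of which Vtn and Clu encode inhibitors of the attack complex. The shift between ASC1-like clusters, given above, was not separated from these changes or from that of C7 in this class. In ASC3-like and VEC-like cells 0 of 14 and 0 of 12 were called in the cold, against 0.409% and 0% of all genes.

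In MAC-like cells 17 of 21 other complement genes were called in the cold, 8 up and 9 down, in the contrast that called 36.3% of all genes. The largest rises were of Cd59b, of Cd59a, a membrane inhibitor of the attack complex, and of Itgb2 (1.44), the shared chain of complement receptors 3 and 4. Cd59b was at 0 in all RT experiments, and Cd59a had an RT mean of 1.26 CPM. The floor of 3 counts was 1.35 and 1.11 CPM in these RT sums, so no fold is given for either gene. Among the falls was that of C2 (-3.46), which measured 18.4 and 17.4 CPM in RT mice and 0.957 and 2.33 in the cold. In resident-like clusters alone the change of C2 was 0.63 (edgeR, adjusted p = 0.44) and in the Lyve1 cells -0.14 (adjusted p = 0.91), so the fall was called over a pool whose make-up moved with treatment. Cr2 was called lower too, but at most 2 counts in each cold experiment and 5 at RT stand behind it, so no fold is given. With CL 4 of 21 were called, against 7.38% of all genes, among them Cfp (0.83) and Cd93 (0.66) up and C5ar2 (-1.24) down. Between cold and CL 8 of 21 were called, against 8.57% of all genes, 1 up (Itgb2, 0.97) and 7 down, among them Cfd (-3.86) and C6 (-3.17), both of which rested on CL replicate 1. Cfd measured 1.45 and 1.65 CPM in COLD mice and 41.7 and 4.82 with CL, and without CL replicate 1 the difference was -1.64 (edgeR, adjusted p = 0.13). Adipocyte RNA could add to Cfd here as in stroma, and its part was not tested. C6 measured 0.300 and 0.465 CPM in COLD mice and 5.44 and 1.29 with CL, and its difference was -1.79 (edgeR, adjusted p = 0.29) without CL replicate 1 and 0.39 (adjusted p = 0.99) in resident-like clusters. In DEND-like cells 4 of 14 were called in the cold, against 13% of all genes, among them C3ar1 (2.06), the receptor of the C3a fragment, and Cd93 (1.76) up, and Cd55 (-2.79) down. In C57 mice C3ar1 and Cd93 stood at 243.1 to 496.5 and 101.3 to 249.1 CPM in MAC-like cells, far above DEND-like cells, where the macrophage marker sum given above also was higher in the cold than at RT, and its part in these rises was not tested. With CL C3ar1 rose there by 2.30 (edgeR, adjusted p = 0.022). Serping1, the inhibitor of C1r and C1s, had C57 medians of 4247 CPM in ASC3-like cells, 3203 in ASC2-like cells and 1590 in ASC1-like cells. Among the genes with most counts in the other classes were Cd93 in VEC-like cells (601 CPM), C5ar1 in MAC-like cells (491.1 CPM) and Cfp, the gene of properdin, in DEND-like cells (308.7 CPM), values that do not rank these genes against each other.

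Across the 36 sums of 6 classes and 6 C57 experiments, which came from 12 libraries, the genes outside the complement list whose log2(CPM + 1) followed C1qa most closely were Adgre1 (r = 0.994), Cd300ld (0.992) and Tlr7 (0.991). C1qb and C1qc followed C1qa at 0.991 and 0.992. For C3 they were Nenf (0.973), Dpt (0.966) and Mfap5 (0.964), and for C7 Chrdl1 (0.954), Vit (0.944) and Sfrp4 (0.936). These coefficients mostly reflect which class a gene is in, and Adgre1, Mfap5 and Chrdl1 were themselves among the markers that named the classes.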

How the data were processed

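Single-cell RNA libraries were made with the 10x Genomics kits. Per the labels and the study's methods, the authors aligned reads to mm10 and counted molecules with Cell Ranger (v3.0.1), then subtracted free RNA with SoupX (v1.0.1, Fabp4 and Car3 as genes not expressed), so the deposited matrices hold estimated counts that need not be whole. This subtraction, set on 2 adipocyte genes, may leave some free RNA of other cells.

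Cells with over 10% mitochondrial counts, over 15000 counts, over 4000 genes (Lin+) or under 100 genes (Lin-) were removed. Each fraction was clustered without complement genes (2000 variable genes, 30 components, 30 neighbours, resolution 1, scanpy v1.11.5, leidenalg v0.10.2) into 35 Lin- and 37 Lin+ clusters. Before clustering, cohorts were aligned on the components (60 groups of cells, 8 rounds). C57 libraries of the same replicate number formed a cohort over all treatments, and each experiment of the Adrb1 line was a cohort of its own. Doublets were kept in the main result, and cells in the top 6% of doublet scores were left out in an alternative. Counts were summed per class and library and rounded, ASC-like and VEC-like classes from Lin- and MAC-like and DEND-like from Lin+. edgeR (v4.0.16, R v4.3.3, TMM factors, filterByExpr, quasi-likelihood test, two-sided) was fitted on all genes of a class over the 6 C57 experiments with treatment as the term, with Benjamini-Hochberg adjustment and a threshold of 0.05, and a difference in response between classes used the library as a block. Fold changes use TMM factors and so differ slightly from ratios of CPM. In a test the fits recovered known changes in counts simulated with the same spread for all genes. That simulation left out the varying spread of the real pools, so it checks the code and not the error rate here. Alternatives were DESeq2 (v1.42.0), RLE factors, no low-count filter, each replicate left out, the replicate block, both fractions summed, both lines, resident-like clusters alone and thinned sums, and 5 chosen after seeing the data: the Saa3 and Mmp3 cluster added, the erythroid endothelial cluster added, CL replicate 2 without shared barcodes, and MAC-like cells without the inflammatory cluster or from the Lyve1 cluster alone.

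All 9 members were named. The other complement genes named were the called ones, at most 3 in each direction per class and contrast, and the highest by level. Some results that this rule would name are not reported here. The members and gene lists were chosen with earlier results of these data known. Replicates were separate pools and differed beyond sampling noise (chi-square per degree of freedom 6.31 to 75.4). The study's methods merge RT, COLD and CL libraries by replicate experiment, with RT and COLD as the example, so the replicate number was used as a block in an alternative, while the main fit has no block. Deviations of equal-numbered libraries correlated over the 6 classes at 0.0818 to 0.381 for RT and COLD, 0.117 to 0.342 for COLD and CL, and -0.111 to 0.0679 for RT and CL. SDs of CPM are not printed because both values of each group are. Counting error alone would understate the spread between pools.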

Additional observations from a re-analysis of the deposited data

Results flagged for a closer look

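8 differences in response between stromal classes passed the test in edgeR. The cold change in ASC2-like minus that in ASC1-like cells was 1.26 for C4b (adjusted p = 0.016), which rose in both, and 1.06 for C1s1 (adjusted p = 0.025), which was called in neither (0.48 and -0.58), in log2 units. Between ASC3-like and ASC1-like cells it differed for C7 (1.39, adjusted p = 0.022), C4b (-1.82, adjusted p = 1.1e-05), Cfb (-0.77, adjusted p = 0.048) and C3 (-1.43, adjusted p = 0.019). The CL response differed for C4b (-2.17, adjusted p = 2.1e-05) and C3 (-1.74, adjusted p = 0.028). In the cold Cfb (0.48 in ASC3-like and 1.18 in ASC1-like cells) and C3 (-0.03 and 1.09) were called in neither class, so Cfb differed by a smaller rise. For C7 at most 12.9 counts stand behind each cold value and 39 behind each RT value in ASC1-like cells, and its difference was lost with DESeq2, with thinned sums, and without RT replicate 1 or COLD replicate 2. The Cfb difference was kept in 5 of 13 alternatives. The C3 difference in the cold was lost without either COLD replicate and with the Saa3 and Mmp3 cluster added, and the one with CL without either COLD or either CL replicate.

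For C3 in ASC1-like and C1qb in DEND-like cells the RT and cold values of both WT and KO lay apart in one direction and those of both C57 replicates in the other, a difference between the lines that was not tested. C3 in ASC1-like cells had a cold change of -1.43 in the Adrb1 line, from the means of WT and KO, against values above RT in both C57 replicates. C1qb in DEND-like cells had a cold change of -1.85 in the Adrb1 line by the same means, where it went from 192.7 to 147.9 CPM in WT and from 672.5 to 92.9 CPM in KO, whose RT sum held 91 cells. The macrophage marker sum in DEND-like cells was 1439 and 1444 CPM in WT and 1934 and 1246 CPM in KO at RT and after cold, and its part was not tested. This stood against higher values in the cold in C57 mice. C4b in ASC1-like cells was opposite to C57 mice in WT only. Line, sex, tamoxifen and, at RT, kit differ together between the lines, and within the Adrb1 line temperature goes with kit and collection day. None of these can be told apart.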

How the results depend on the processing

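Of 1126 alternative values for 79 single tests, 768 of the planned ones kept direction and side of the threshold, 152 fell below it, 45 newly passed and 13 reversed, and of those added after seeing the data 122 kept both, 19 fell below it, 1 newly passed and 6 reversed. Of the planned reversals, 9 came with MAC-like cells restricted to resident-like clusters: in the cold against RT C1qa 0.25, C1qb 0.37, C1qc 0.33, C1ra 0.52, C4b 1.20 and C2 0.63, and against CL C1qa 0.11, C4b 0.16 and C6 0.39. Of the added ones, 5 came with the Lyve1 cluster alone, C1qa 0.32, C1qb 0.70 and C1qc 0.46 in the cold against RT, and C1qa 0.14 and C4b 0.21 against CL, and 1 without the inflammatory cluster, C3 -0.23 in the cold. With both lines C3 in ASC1-like cells (-0.13) and C1qb (-0.43) and C1qc (-0.36) in DEND-like cells reversed in the cold, and C4b in ASC3-like cells ran from -0.59 to 0.20 with 1 replicate left out, positive without RT replicate 1, none of them called. Member-by-class calls in the cold (9) numbered 15 with no filter, 14 with both lines 4 with resident-like clusters and 3 with the Lyve1 cluster alone, and 3 to 12 with 1 replicate left out, fewest without COLD replicate 2 (5 without COLD replicate 1). With CL (3) they numbered 7 with DESeq2, 12 with no filter and 7 with the replicate block, and 0 to 5 with 1 replicate left out, fewest without CL replicate 1, with 1 without RT replicate 2 and 5 without CL replicate 2. Between cold and CL (3) they numbered 5 with DESeq2, 8 with no filter and 1 with resident-like clusters or the Lyve1 cluster alone, and 1 to 4 with 1 replicate left out, 1 without either COLD replicate. Differences in response (8) numbered 2 to 9 with 1 replicate left out, 2 without COLD replicate 2 and 3 without COLD replicate 1. With the replicate block 12 member-by-class tests were called in the cold and 4 between cold and CL. All-gene calls grew too: in the cold from 1458 to 2111 in ASC1-like and from 1279 to 1928 in DEND-like cells with the block, and with CL from 8 to 76 (57 with DESeq2) in ASC2-like and from 61 to 246 (240) in DEND-like cells. Except by construction, through fewer cells or experiments, the cause was not tested. Levels under 10 CPM, such as C7 in ASC1-like and C4b in DEND-like cells, rest on few counts.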
